A study of Homo sapiens with 4 samples.

Results

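MDS-L/CDA cells under AZA were compared with MDS-L cells under AZA. The comparison rests on 2 of the 4 arrays of the series, 1 for each line, picked by sample title. MDS-L is a myeloid cell line that was established from a patient with myelodysplastic syndrome (MDS). MDS-L/CDA is its derivative, which carries a transduced CDA gene for cytidine deaminase and was made as a model of resistance to azacitidine (AZA). Both lines grew in RPMI1640 medium with 10% FBS, IL-3 and 2-mercaptoethanol, and were kept for 72 h with AZA. The remaining arrays were 1 of each line kept for 72 h in the vehicle, 0.1% DMSO. They are given here beside the AZA arrays, as the state of both lines without drug. The dose of AZA was 1 μM by the study's methods and most label fields, while the titles carry a millimolar unit. For MDS-L AZA and MDS-L/CDA vehicle, the treatment field of the labels names the other treatment, whereas their titles and descriptions agree on the groups used here. The question was which genes were measurable in 1 line only once both had been exposed to the drug. With 1 array for each condition no difference below has a replicate array, and no test was possible.

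AZA is a cytidine analogue that cells phosphorylate and build into RNA and DNA. In DNA it traps DNA methyltransferases, so that CpG methylation is lost as cells replicate, and genes held silent by promoter methylation can be transcribed. Cytidine deaminase turns cytidine analogues into uridine analogues, which do not trap these enzymes. Germline and cancer-testis genes are well-known examples of genes held silent by methylation in somatic cells.

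RNA was hybridized with a single dye (Cy3) to arrays of 60-base probes, all on 1 slide. Values are given as a scaled signal, an index on which the 75th percentile of each array is 100. A gene is called on where the scanner flagged its brightest probe as well above background. Before scaling, the 75th percentile was 52.9 in MDS-L AZA and 37.3 in MDS-L/CDA AZA, and 36.5% and 32.6% of 58185 probes were on. The lowest signal that was on was 19.03 in MDS-L AZA and 29.6 in MDS-L/CDA AZA on the scaled index, so a dim gene could be on in MDS-L AZA below the level at which MDS-L/CDA AZA registers any. Where 1 line was not well above background, the fold is a bound, written as at least, against the higher of its own signal and this lowest level. The only error available was the spread between spots of 1 probe on an array, with a median SD of 0.142 log2 units in MDS-L AZA and 0.205 in MDS-L/CDA AZA. It covers neither culture nor labelling. Of 10 stem and progenitor markers, among them CD34, CD33 and IL3RA, 10 were on in all 4 arrays. The neutrophil granule genes MPO and ELANE and the fibroblast genes COL1A1, COL1A2 and DCN were not well above background in any of them. The probe for CDA itself failed that criterion on all 4 arrays, with 14.6 in MDS-L/CDA AZA and 9.43 in MDS-L AZA. It gives no check of the transduced gene, since which part of the transcript was transduced is not given in the sources used here.

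Promoter sequences are shown for 5 genes that were on in MDS-L AZA and not in MDS-L/CDA AZA, since CG dinucleotides are where methylation acts. ALOX12, CHAC1 and PRAME are genes that the study selected, and CXCR4 and CLC are among the 12 largest differences of this kind. Each is the 250 bases before the RefSeq start of the gene, on its own strand in the GRCh38.p14 assembly, with CG dinucleotides in capitals. They lie at chr17:6995799-6996048 (ALOX12, plus strand), chr15:40953221-40953470 (CHAC1, plus), chr22:22559266-22559515 (PRAME, minus), chr2:136118150-136118399 (CXCR4, minus) and chr19:39738030-39738279 (CLC, minus).
ALOX12: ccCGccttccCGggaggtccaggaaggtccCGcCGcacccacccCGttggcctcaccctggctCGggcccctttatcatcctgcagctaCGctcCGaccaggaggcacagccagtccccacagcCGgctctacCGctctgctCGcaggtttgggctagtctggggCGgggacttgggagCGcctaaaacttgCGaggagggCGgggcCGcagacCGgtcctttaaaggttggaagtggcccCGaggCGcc
CHAC1: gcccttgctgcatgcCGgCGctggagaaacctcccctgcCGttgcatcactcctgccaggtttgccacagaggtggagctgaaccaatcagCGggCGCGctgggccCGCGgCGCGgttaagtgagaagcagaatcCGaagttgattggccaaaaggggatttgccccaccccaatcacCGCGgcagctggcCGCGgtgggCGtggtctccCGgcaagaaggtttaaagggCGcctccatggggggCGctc
PRAME: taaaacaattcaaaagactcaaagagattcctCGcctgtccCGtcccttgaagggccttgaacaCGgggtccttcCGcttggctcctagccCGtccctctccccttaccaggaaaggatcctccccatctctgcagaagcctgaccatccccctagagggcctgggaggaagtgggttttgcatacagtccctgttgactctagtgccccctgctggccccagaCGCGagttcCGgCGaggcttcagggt
CXCR4: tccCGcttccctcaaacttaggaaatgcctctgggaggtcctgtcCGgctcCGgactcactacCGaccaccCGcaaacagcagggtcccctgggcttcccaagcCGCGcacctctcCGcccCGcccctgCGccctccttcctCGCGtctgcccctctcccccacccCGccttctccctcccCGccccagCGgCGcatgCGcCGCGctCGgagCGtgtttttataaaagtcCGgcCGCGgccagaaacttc
CLC: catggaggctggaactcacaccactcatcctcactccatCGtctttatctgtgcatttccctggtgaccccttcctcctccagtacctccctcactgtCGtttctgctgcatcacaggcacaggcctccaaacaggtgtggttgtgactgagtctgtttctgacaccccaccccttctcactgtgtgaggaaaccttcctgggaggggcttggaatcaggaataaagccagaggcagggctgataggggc

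The 5 sequences ranged from CG-rich to CG-poor. CXCR4 had 24 CG dinucleotides, ALOX12 and CHAC1 had 19 each, PRAME had 9 and CLC had 2. The arrays do not measure methylation. By methylation-specific PCR of 5′-flanking regions, the study reported more unmethylated DNA after AZA for ALOX12, in MDS-L only. For CHAC1 and PRAME it reported no effect of AZA in either line. The 5 genes shared their values under AZA, on in MDS-L and not well above background in MDS-L/CDA. ALOX12, a platelet and skin lipoxygenase, had a scaled signal of 173 in MDS-L AZA and 7.0 in MDS-L/CDA AZA, with 4.77 and 6.79 in the vehicle arrays of the same lines. CHAC1, a glutathione-degrading enzyme of the stress response, had 534 in MDS-L AZA and 11.4 in MDS-L/CDA AZA, with 9.81 and 12.2 in vehicle. PRAME, a cancer-testis antigen, had 163 in MDS-L AZA and 10.8 in MDS-L/CDA AZA, with 8.28 and 26.3 in vehicle. For these 3 genes, MDS-L AZA was the only array of the 4 that was on. CXCR4, the receptor for the chemokine CXCL12, had 1252 in MDS-L AZA and 6.80 in MDS-L/CDA AZA, with 278 and 6.37 in vehicle. CLC, the Charcot-Leyden crystal protein of eosinophils and basophils, had 1315 and 6.71 under AZA, with 57.8 and 6.60 in vehicle. For CXCR4 and CLC, both MDS-L arrays were on and neither MDS-L/CDA array was.

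Under AZA, 13269 of 23552 genes with a RefSeq name were on in at least 1 line and 11952 were on in both. A total of 1161 genes (8.75%) were on in MDS-L AZA only and 156 (1.18%) in MDS-L/CDA AZA only. Most of the former were dim, with a median signal of 36.7, and 256 of them (1.93% of the 13269) stood at least 2-fold above the bound of MDS-L/CDA AZA. Of the 156 genes, 85 (0.641%) stood at least 2-fold above the bound of MDS-L AZA. The asymmetry was larger at 4-fold, with 86 genes (0.648%) on in MDS-L AZA only and 14 (0.106%) on in MDS-L/CDA AZA only. The brightest gene that was on in MDS-L AZA only reached 3141, and the brightest on in MDS-L/CDA AZA only reached 181. Genes on in both lines leaned the other way. Among them 653 (5.46%) were at least 2-fold higher in MDS-L/CDA AZA and 475 (3.97%) at least 2-fold higher in MDS-L AZA. In all, 738 genes (5.56%) were at least 2-fold higher in MDS-L/CDA AZA and 731 (5.51%) in MDS-L AZA. At 4-fold these numbers were 42 (0.317%) and 163 (1.23%).

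The balance of directions depended on the scaling. The genes on in both lines had a median log2 difference of 0.24 (MDS-L/CDA minus MDS-L), with an SD of 0.62. With the percentile taken over probes that were on in all 4 arrays, this median was -0.0060, and the numbers became 320 higher in MDS-L/CDA AZA and 1130 higher in MDS-L AZA. The share of differences that were higher in MDS-L was 49.8% with the 75th percentile of all probes, 77.9% with that alternative, 59.5% after quantile normalization and 75.9% after normexp background correction. It was 59.3% in the authors' value table and 92.8% without scaling. List medians are therefore read below against the median of all genes measured, which was 0.19.

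**Figure D1:**
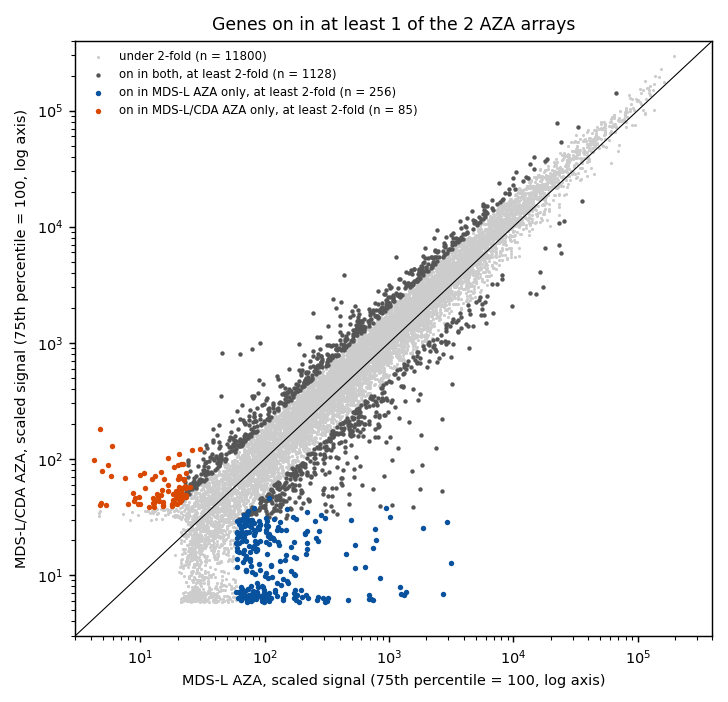
Scaled signal of each gene in MDS-L AZA (x axis) and MDS-L/CDA AZA (y axis), both log axes with the 75th percentile of the array at 100; the line marks equal signal and colours give the class of each gene. The 256 blue genes on in MDS-L AZA only extend to a signal of 3141, whereas the 85 orange genes on in MDS-L/CDA AZA only reach 181.

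Without drug the lines were closer. The vehicle arrays had 218 genes (1.72% of 12705) at least 2-fold higher in MDS-L/CDA and 337 (2.65%) in MDS-L, and the SD over genes on in both was 0.44. Of the 731 genes higher in MDS-L AZA, 437 were less than 2-fold apart without drug, 189 were on in neither vehicle array, 94 were at least 2-fold apart in the same direction and 11 in the opposite one. Of the 738 genes higher in MDS-L/CDA AZA, these numbers were 616, 25, 74 and 23. Of the 256 genes on in MDS-L AZA only, 164 (64.1%) were on in neither vehicle array. Their median signal was 13.4 in MDS-L vehicle and 91.8 in MDS-L AZA, against 10.1 and 14.3 in MDS-L/CDA. The next values are those of the 653 genes that were on in both lines and higher in MDS-L/CDA AZA. Their median signal in MDS-L/CDA was 821 with vehicle and 788 with AZA, but in MDS-L it was 620 with vehicle and 320 with AZA. These medians follow in part from how the genes were chosen, by a low signal in MDS-L AZA or a high one in MDS-L/CDA AZA. The 475 genes on in both lines and higher in MDS-L AZA had a median of 200 in MDS-L vehicle and 424 in MDS-L AZA, with 144 and 138 in MDS-L/CDA. The medians of the 256 and 475 genes also follow in part from selection, by a high MDS-L AZA or a low MDS-L/CDA AZA signal.

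Some genes on in MDS-L AZA only were at the brightness of the 75th percentile many times over, and they fell into genes seen in that array alone and genes already seen in MDS-L without drug. GAGE12F, a cancer-testis antigen of the GAGE cluster on chromosome X, had 3141 in MDS-L AZA against 12.8 in MDS-L/CDA AZA, a fold of at least 106. The vehicle arrays were at 10.3 in MDS-L and 14.9 in MDS-L/CDA. Copies of GAGE are near-identical, so which of them gave the signal is uncertain. PNMA5, a paraneoplastic antigen family gene, had 2914 against 28.6, at least 98.6-fold. CTAG1A (NY-ESO-1) and its relative CTAG2 had 2726 and 1228 in MDS-L AZA and 6.81 and 7.84 in MDS-L/CDA AZA, and were at least 92.2-fold and 41.6-fold apart. CTAG1A shares its sequence with CTAG1B, so the copy is likewise uncertain. MT1G, a metallothionein that binds zinc and copper, had 1361 in MDS-L AZA and 7.15 in MDS-L/CDA AZA (at least 46.0-fold), and its probe may also detect its close relatives. RGS16, a regulator of G-protein signalling, had 773 and 25.1 (at least 26.2-fold), on both of its probes. All 6 of these genes were not well above background in both vehicle arrays.

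The other genes of this group were on in MDS-L vehicle as well, and their differences between the lines preceded the drug for some. BAMBI, a decoy receptor of the TGF-beta family, had 942 in MDS-L vehicle and 1863 in MDS-L AZA, against 24.0 and 25.6 in MDS-L/CDA (at least 63.0-fold under AZA). HOXB6, a homeobox factor, had 109 and 842 in MDS-L and 6.46 and 9.42 in MDS-L/CDA (at least 28.5-fold under AZA). CLC and CXCR4, shown above with their promoters, were at least 44.5-fold and 42.3-fold apart under AZA. SLITRK6, a neuronal transmembrane protein, had 32.3 in MDS-L vehicle and 783 in MDS-L AZA, against 6.28 and 19.9 in MDS-L/CDA. TUBB2A, a beta-tubulin, had 1022 in MDS-L AZA and between 25.6 and 32.4 in the remaining arrays. SLITRK6 and TUBB2A each had a further probe that did not differ at least 2-fold.

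The 6 genes that the study selected were all higher in MDS-L AZA, but they were chosen from these arrays, so the array values give no independent evidence of direction. ANGPT2, which encodes a ligand of the TIE2 receptor, was the only one of them on in both lines, with 1047 in MDS-L AZA and 39.7 in MDS-L/CDA AZA (26.4-fold). The other 5 were on in MDS-L AZA only. Their bounds were at least 18.1-fold for CHAC1, 9.14-fold for ADCYAP1, 7.36-fold for BIK, 5.87-fold for ALOX12 and 5.50-fold for PRAME. ADCYAP1, which encodes a neuropeptide, had 270 in MDS-L AZA and 6.49 in MDS-L/CDA AZA. BIK, a pro-apoptotic BH3-only protein, had 217 and 18.8. None of the 6 was on in MDS-L vehicle or MDS-L/CDA vehicle. For CHAC1, 1 of 2 probes differed at least 2-fold, and for PRAME 2 of 3 did. By the study's own repeated RT-qPCR, all 6 genes rose with the dose of AZA in MDS-L. In MDS-L/CDA, at a different range of doses, ANGPT2, PRAME and CHAC1 did not rise, and BIK, ADCYAP1 and ALOX12 rose slightly if at all.

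**Figure D2:**
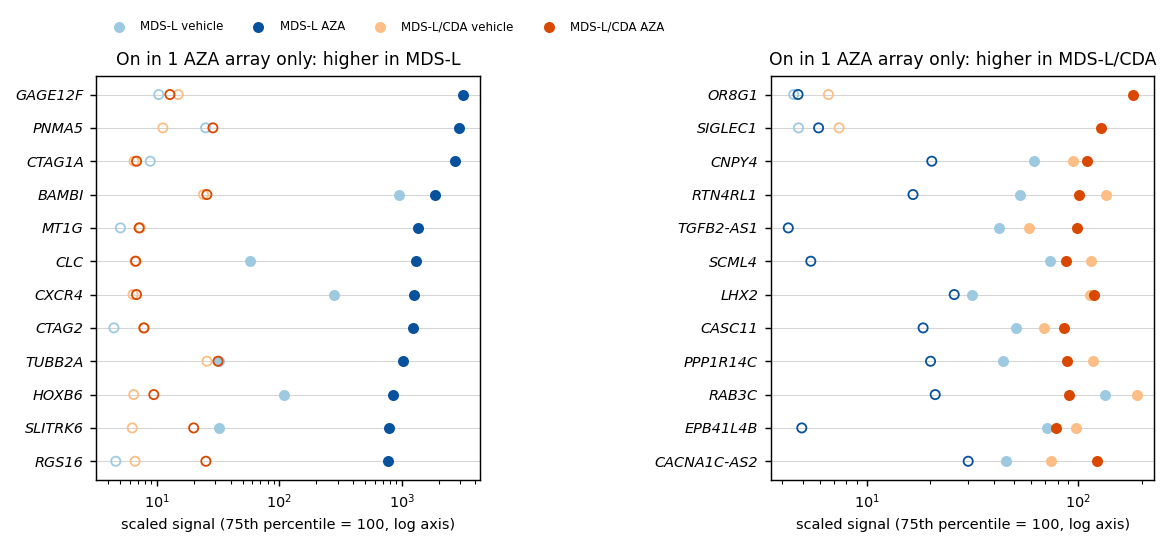
Scaled signal (log axis, 75th percentile of the array = 100) in all 4 arrays of the 12 genes with the largest bound in each direction among genes on in 1 AZA array only; filled circles are on and open circles are not well above background. On the left, MDS-L AZA lies far to the right of MDS-L/CDA AZA for every gene, and on the right 10 of the 12 genes are also on in both vehicle arrays and only MDS-L AZA is open.

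Genes on in MDS-L/CDA AZA only were few and dim. Among the 12 with the largest bound, 10 were on in both vehicle arrays as well, so that MDS-L AZA was the only array in which they were not. CNPY4, a chaperone-like protein, had 110 in MDS-L/CDA AZA and 20.3 in MDS-L AZA (at least 5.4-fold), with 94.6 and 61.8 in vehicle. SCML4, a polycomb-related protein, had 88.0 and 5.45 under AZA (at least 4.62-fold), with 114 and 73.6 in vehicle. LHX2, a LIM homeobox factor, had 118 and 26 under AZA (at least 4.56-fold), with 113 and 31.6 in vehicle. RAB3C, a vesicle GTPase, had 90.3 and 21.1 under AZA (at least 4.28-fold), with 190 and 134 in vehicle. The 2 remaining genes were on in MDS-L/CDA AZA alone. OR8G1, an odorant receptor gene, had 181 in MDS-L/CDA AZA and between 4.52 and 6.60 elsewhere (at least 9.54-fold). SIGLEC1, the macrophage sialoadhesin, had 128 in MDS-L/CDA AZA and between 4.77 and 7.41 elsewhere (at least 6.72-fold). OR8G1 and SIGLEC1 had 1 probe each.

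Among genes on in both lines, the 12 largest differences in favour of MDS-L AZA included genes of varied kinds. PRG2, the eosinophil major basic protein, had 2668 in MDS-L AZA and 53.1 in MDS-L/CDA AZA (50.2-fold), with 27.9 and 22 in vehicle. ALB, which encodes serum albumin, had 1790 and 55.3 (32.3-fold), with 36.3 and 7.02 in vehicle. KIT, the receptor for stem cell factor, had 2382 and 124 (19.2-fold), with 50.3 and 34.6 in vehicle. H19, an imprinted non-coding RNA, had 1833 and 88.7 (20.7-fold), on both of its probes, with 74.7 and 74.9 in vehicle. For PRG2, ALB and KIT, MDS-L/CDA AZA was also above its own vehicle array, but by far less. TFF3, a secreted trefoil peptide, had 846 and 38.9 (21.7-fold), on all 3 of its probes. KCNK5, a potassium channel, had 2679 and 222 (12.1-fold). IGLL5, an immunoglobulin lambda-like gene, had 1532 and 78.2 (19.6-fold), and its sequence is shared in part with immunoglobulin lambda genes. NBDY, which encodes a microprotein of mRNA decapping bodies, was already apart in vehicle, with 736 in MDS-L and 24.4 in MDS-L/CDA, and had 1572 and 38.6 under AZA (40.7-fold).

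In the opposite direction several leading genes were low in MDS-L AZA alone. INO80D, a subunit of the INO80 chromatin remodeller, had 814 in MDS-L/CDA AZA and 45.1 in MDS-L AZA (18.0-fold), with 673 and 875 in vehicle. ADSL, an enzyme of purine synthesis, had 1820 and 247 (7.38-fold), with 2153 and 1624 in vehicle. ARHGAP15, a GTPase-activating protein of RAC, had 985 and 190 (5.20-fold), with 1761 and 2359 in vehicle. Others were already higher in MDS-L/CDA without drug. TERT, the catalytic subunit of telomerase, had 1003 and 91.6 under AZA (10.9-fold), with 1581 and 681 in vehicle. PRKCH, a protein kinase C, had 3837 and 430 under AZA (8.91-fold), with 4401 and 1034 in vehicle. FAM171A1, a membrane protein, had 793 and 63.1 (12.6-fold) on both of its probes, with 752 and 128 in vehicle. HOPX, a homeodomain-only protein of progenitor cells, had 350 and 44.2 (7.93-fold), with 875 and 203 in vehicle. For INO80D, HOPX and PCYOX1 (892 and 78.8, 11.3-fold), 1 of 2 probes differed at least 2-fold.

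**Figure D3:**
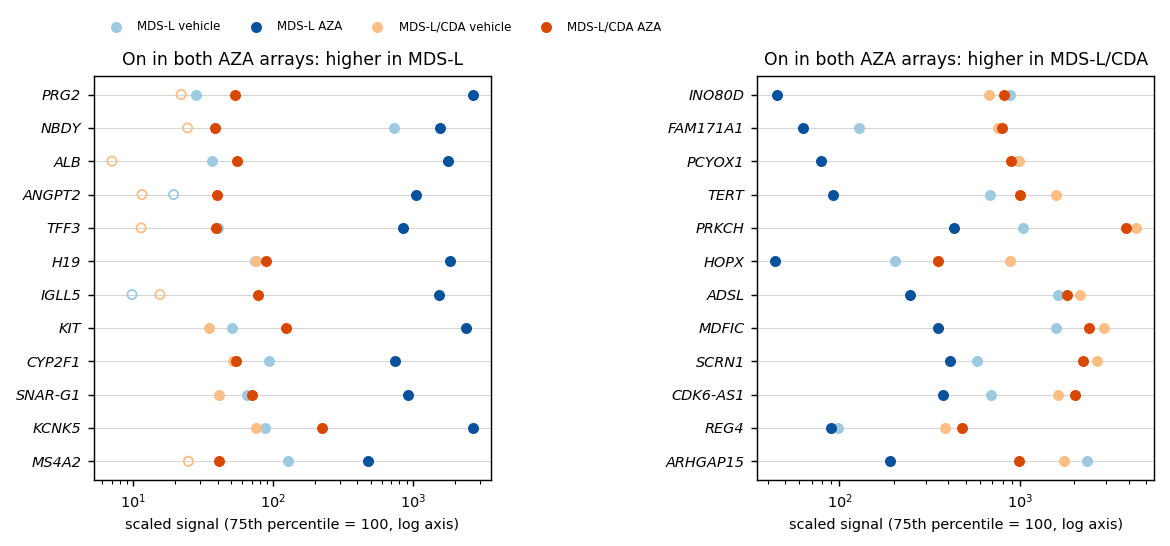
Scaled signal (log axis, 75th percentile of the array = 100) in all 4 arrays of the 12 genes with the largest difference in each direction among genes on in both AZA arrays; filled circles are on and open circles are not well above background. On the left MDS-L AZA is the highest of the 4 arrays for every gene, and on the right MDS-L AZA is the lowest of the 4 arrays for every gene.

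A further probe bore on part of these differences. Of the 738 genes higher in MDS-L/CDA AZA, 162 had another measured probe, and for 70 of them (43.2%) it was also at least 2-fold higher. Of the 731 genes higher in MDS-L AZA, 172 had another measured probe, and for 45 (26.2%) it was also at least 2-fold higher. The other probes had the same sign as the brightest one for 131 of the 162 and 127 of the 172 genes. A difference on the brightest probe is thus a statement about that probe.

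Beside the counts of list members below stand the shares over all genes measured, 5.51% at least 2-fold higher in MDS-L AZA and 5.56% in MDS-L/CDA AZA. The lists were chosen with earlier results of these data known, so their shares are descriptions. CHAC1, BIK, PRAME and ALOX12, which the study picked from these arrays, also count in some of the lists. Genes of mast cells, basophils and eosinophils were the blood lineage list that stood farthest below all genes. Of 24 on the array, 18 were measured, 12 (66.7%) were at least 2-fold higher in MDS-L AZA and none was at least 2-fold higher in MDS-L/CDA AZA, with a median log2 difference of -1.64. The count of 12 ranged from 10 to 14 over the scalings tried. HDC, which makes histamine, had 13707 in MDS-L AZA and 2680 in MDS-L/CDA AZA (5.11-fold), with 1451 and 664 in vehicle. FCER1A and MS4A2, subunits of the IgE receptor, were 2.89-fold and 11.5-fold higher in MDS-L AZA. In vehicle they were already 2.06-fold and at least 4.68-fold higher in MDS-L. CPA3, a mast cell protease, had 4221 and 2370 under AZA (1.78-fold), and was farther apart in vehicle, at 1199 and 362 (3.31-fold). TPSAB1, a mast cell tryptase that cannot be told from its near-identical copies, had 1341 and 316 (4.24-fold), with 227 and 143 in vehicle. Without drug the list already had a median of -0.68, and 6 of its genes were at least 2-fold higher in MDS-L. RNASE2, an eosinophil ribonuclease, was such a gene, with 154 and 11 in vehicle and 173 and 19.3 under AZA. The 5 markers of this lineage that were checked were on in both AZA arrays, with a summed signal of 23928 in MDS-L AZA and 6856 in MDS-L/CDA AZA. EPX, PRG3 and IL5RA, which mark eosinophils, were on in neither. In bulk RNA, fewer cells of a type and less RNA in each cell cannot be told apart.

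Erythroid and megakaryocyte genes lay on the same side, with differences in part of each list. Of 29 erythroid genes measured, 7 (24.1%) were at least 2-fold higher in MDS-L AZA and none in MDS-L/CDA AZA (median -0.50, and -0.04 without drug). With the dim side at its bound the median was -0.24, since 9 of the 29 were on in MDS-L AZA only. Without drug, 4 erythroid genes were at least 2-fold higher in MDS-L and 1 in MDS-L/CDA. Relative to all genes, the erythroid median lay between -0.70 and -0.09 over the alternatives run. GATA1, the erythroid and megakaryocyte transcription factor, had 1442 in MDS-L AZA and 208 in MDS-L/CDA AZA (6.94-fold), with 126 and 50.7 in vehicle. HBG1, a fetal globin, had 948 and 37.7, of which the latter was not well above background (at least 25.1-fold), and HBA2, an alpha globin, had 198 and 6.44 (at least 6.71-fold). Both globins have near-identical copies, HBG2 and HBA1. KLF1, another erythroid transcription factor, had 90.6 and 146, which is 1.61-fold in the other direction, and ALAS2, the erythroid enzyme of haem synthesis, was on in neither line. Of 13 megakaryocyte and platelet genes measured, 5 (38.5%) were higher in MDS-L AZA and 1 (7.69%) in MDS-L/CDA AZA (median -0.97, and 0.05 without drug). GP1BB and GP9, subunits of the platelet receptor for von Willebrand factor, had 3235 and 155 in MDS-L AZA and 446 and 8.58 in MDS-L/CDA AZA. PPBP, a platelet chemokine, had 583 and 86.3 (6.76-fold). SPARC, a matrix protein, had 192 and 389 and was the gene in the other direction. ITGA2B and PF4 did not share the pattern, the first at 1494 and 2238 and the second on in neither line.

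Neutrophil and monocyte genes and lymphoid genes gave mixed lists. Of 14 neutrophil and monocyte genes measured, 4 were at least 2-fold higher in MDS-L AZA and 1 in MDS-L/CDA AZA (median -0.47, and -0.30 without drug). CSF3R, the receptor for G-CSF, had 414 in MDS-L AZA and 61.6 in MDS-L/CDA AZA (6.73-fold), and was already apart in vehicle at 739 and 67.4. CD14, the monocyte receptor for endotoxin, was the gene in the other direction, with 23.6 and 53. Its MDS-L AZA signal was near the lowest that was on in that array, 19.03. The count of 1 ranged from 0 to 1 over the scalings tried. Of 13 lymphoid markers measured, 4 were higher in MDS-L AZA and 2 in MDS-L/CDA AZA. CD3D, a T cell receptor subunit, had 447 in MDS-L AZA and 15.3 in MDS-L/CDA AZA (at least 15.1-fold) whereas CD3E, from the same complex, was on in neither. CD7 and NKG7, markers of T and NK cells, were 2.81-fold and 3.62-fold higher in MDS-L/CDA AZA. Stem and progenitor surface markers were close to all genes (17 measured, 2 higher in MDS-L AZA and 1 in MDS-L/CDA AZA), and CD34 had 830 and 1536.

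**Figure D4:**
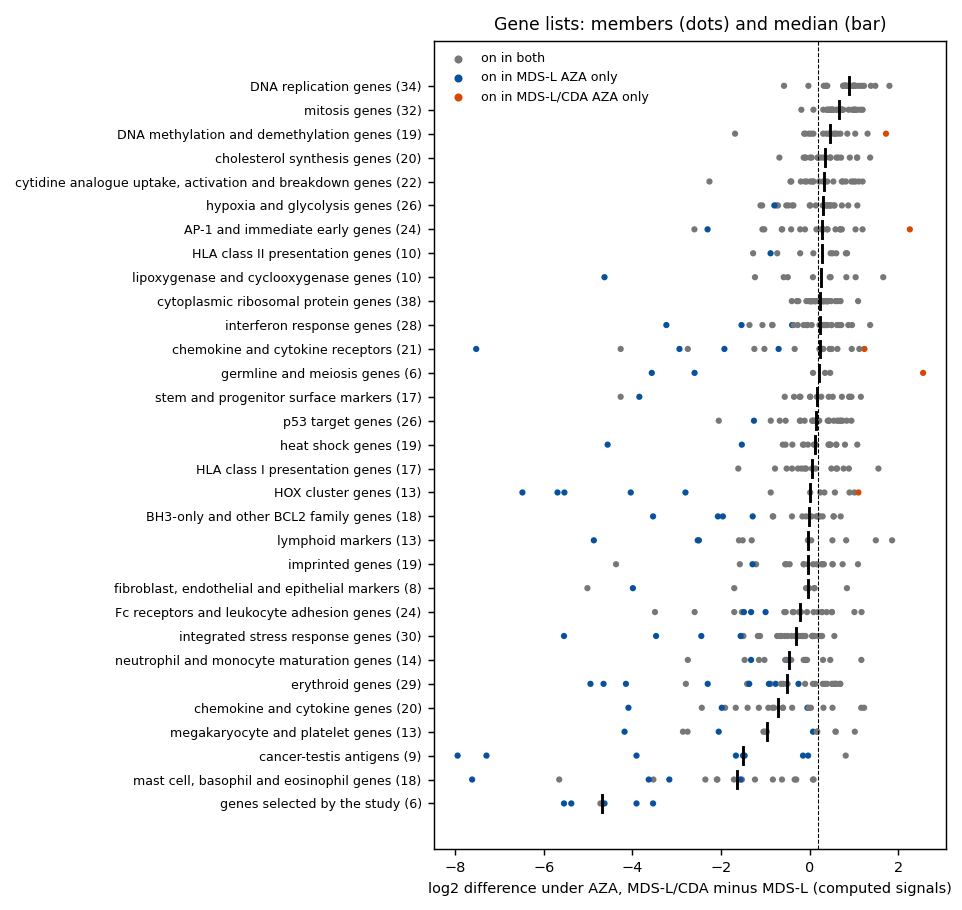
Log2 difference under AZA (MDS-L/CDA minus MDS-L, x axis) of each measured member (dots, coloured by the lines in which the gene was on) of 31 gene lists (y axis, number measured in brackets); bars mark list medians and the dashed line the median of all genes measured, 0.19. The medians of DNA replication and mitosis genes lie to the right of the line, and those of mast cell, cancer-testis and megakaryocyte genes to its left.

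Few cancer-testis antigens were on, and most of these in MDS-L AZA only. Of 26 on the array, 9 were measured. Of these 9, 8 were on in MDS-L AZA only, 1 in both lines and none in MDS-L/CDA AZA only. Over all genes measured, 8.75% were on in MDS-L AZA only. The lowest signal that was on was lower in MDS-L AZA (19.03 against 29.6), so a count by flags alone favours that line. Of the 8, GAGE12F, CTAG2, PRAME and XAGE1A were at least 2-fold above the bound. They were 44.4% of the 9 measured, against 5.51% of all genes. PAGE2, MAGEA6, MAGEC1 and SSX2 were too dim for a 2-fold difference to be shown. The gene on in both was LAGE3, a broadly expressed relative. The remaining 17 genes were on in neither line, MAGEA1, MAGEA4 and SSX1 among them. Germline and meiosis genes were mostly silent too, with 26 of 32 on in neither line. TDRD9, a piRNA pathway helicase, had 71.3 in MDS-L AZA and 6.03 in MDS-L/CDA AZA (at least 2.41-fold). MOV10L1, from the same pathway, had 8.65 and 50.9 (at least 2.68-fold in the other direction, on 1 of 3 probes).

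Among HOX genes, 4 of 13 measured (30.8%, against 5.51% of all genes) were at least 2-fold higher in MDS-L AZA and 2 (15.4%, against 5.56%) in MDS-L/CDA AZA. Over the scalings tried these counts ranged from 3 to 6 and from 0 to 2. HOXC4, HOXC6 and HOXC9 of the HOXC cluster were on in MDS-L AZA alone of the 4 arrays, with 134, 296 and 304 against 8.18, 6.39 and 5.90 in MDS-L/CDA AZA. HOXC4 and HOXC6 have transcripts in common, so they may not be separate observations. HOXA5 and HOXA6, by contrast, were 2.01-fold and at least 2.14-fold higher in MDS-L/CDA AZA. Of 19 imprinted genes measured, H19, GRB10 and CDKN1C were higher in MDS-L AZA, and PHLDA2 was 2.13-fold higher in MDS-L/CDA AZA. CDKN1C, an inhibitor of cyclin-dependent kinases, had 25731 in MDS-L AZA and 11116 in MDS-L/CDA AZA (2.31-fold), with 4286 and 6318 in vehicle.

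Chemokine and cytokine genes were lower in MDS-L/CDA AZA for part of the list. Of 20 measured, 6 (30%) were at least 2-fold higher in MDS-L AZA and 2 in MDS-L/CDA AZA (median -0.71, and -0.13 without drug). TNF, the inflammatory cytokine, had 1721 in MDS-L AZA and 318 in MDS-L/CDA AZA (5.41-fold), with 80.4 and 66.0 in vehicle. IL1B, another inflammatory cytokine, had 5544 and 1743 (3.18-fold), with 2361 and 1632 in vehicle. CCL5 and CCL23, which attract leukocytes, were at least 3.36-fold and 3.76-fold higher in MDS-L AZA. CCL3, a macrophage chemokine, differed in the other direction, with 587 in MDS-L AZA and 1374 in MDS-L/CDA AZA (2.34-fold) and 217 and 194 in vehicle. The probes of its near-identical copy CCL3L3 went the same way. Of 21 receptors, 5 were higher in MDS-L AZA and 2 in MDS-L/CDA AZA, with CXCR4 and KIT at the top. Among 24 Fc receptor and leukocyte adhesion genes, 4 (16.7%) were higher in MDS-L AZA and 2 (8.33%) in MDS-L/CDA AZA. The largest of these differences was that of ITGB2, the beta subunit of leukocyte integrins, with 1807 in MDS-L AZA and 161 in MDS-L/CDA AZA (11.2-fold), but it was seen on 1 of 2 probes. FGR, a kinase of the SRC family in the same list, had 416 and 68.8 (6.05-fold).

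Stress and cell death lists lay near all genes or somewhat below, with single genes far apart. Of 30 genes of the integrated stress response, 7 (23.3%) were at least 2-fold higher in MDS-L AZA and none in MDS-L/CDA AZA (median -0.30, and 0.12 without drug). Beside CHAC1, DDIT4, an inhibitor of mTOR, had 3609 in MDS-L AZA and 1254 in MDS-L/CDA AZA (2.88-fold), and SLC7A11, the cystine transporter, had 2381 and 844 (2.82-fold). ATF4 and DDIT3, the transcription factors at the head of this response, had log2 differences of -0.10 and -0.26. Of 26 p53 target genes, 2 (7.69%, near the 5.51% of all genes) were higher in MDS-L AZA. TP53INP1 had 3143 and 757 (4.15-fold on both probes) and was already apart in vehicle at 423 and 122, and TNFRSF10B, a TRAIL receptor, had 71.6 and 29.9. Of 18 BCL2 family genes, BIK and BCL2L2 were higher in MDS-L AZA. HSPA1A, a heat shock protein with a near-identical copy, was on in MDS-L AZA alone of the 4 arrays, at 174. Of 19 heat shock genes measured, 1 (5.26%) was at least 2-fold higher in each line. The gene higher in MDS-L/CDA AZA was HSPB1, with 9300 in MDS-L AZA and 19554 in MDS-L/CDA AZA (2.10-fold, on 2 of 3 probes). EGR1, an immediate early transcription factor, had 414 and 68.2 (6.07-fold), with 38.2 and 29.96 in vehicle. Of 24 immediate early genes measured, 3 (12.5%) were at least 2-fold higher in MDS-L AZA and 3 (12.5%) in MDS-L/CDA AZA. The latter were DUSP4, FOSL1 and NR4A3, at 2.28-fold, 2.05-fold and at least 2.46-fold.

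DNA replication and mitosis genes lay on the other side, and all of them were on in both lines. Of 34 replication genes, 9 (26.5%, against 5.56% of all genes) were at least 2-fold higher in MDS-L/CDA AZA and none in MDS-L AZA, with a median of 0.88 against 0.19 for all genes. Without drug the median was 0.22. MCM6, a subunit of the replicative helicase, had 26064 in MDS-L/CDA AZA and 10019 in MDS-L AZA (2.60-fold), with 18501 and 20787 in vehicle. CDC6, which loads this helicase, had 227 and 81.5 (2.79-fold), with 183 and 153 in vehicle. MCM7, another helicase subunit, had 77621 and 22332 (3.48-fold), but was already apart in vehicle at 83418 and 32184. TYMS and PCNA did not share the direction, with log2 differences of -0.58 and -0.03. Of 32 mitosis genes, 6 (18.8%) were at least 2-fold higher in MDS-L/CDA AZA (median 0.65, and 0.09 without drug), among them CCNA2, which encodes cyclin A2, at 4729 and 2068 (2.29-fold) and the mitotic motor KIF11 at 4372 and 1977 (2.21-fold). The counts of 9 and 6 depended on the scaling and ranged from 1 to 9 and from 0 to 6. The medians relative to all genes were above 0 under each alternative run, from 0.56 to 0.68 for replication and from 0.26 to 0.45 for mitosis.

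Few genes of DNA methylation and of cytidine analogue metabolism were at least 2-fold apart. DNMT1, the maintenance methyltransferase that AZA traps, had 998 in MDS-L/CDA AZA and 676 in MDS-L AZA (1.48-fold), with 896 and 846 in vehicle. DNMT3B, a de novo methyltransferase, had 10363 and 5090 (2.04-fold), on 1 of 2 probes. TET1, which oxidizes methylcytosine, had 109 and 44.2 (2.47-fold). APOBEC3B, a DNA cytosine deaminase, had 77.1 and 248, which is 3.22-fold higher in MDS-L AZA. It was already at least 2.14-fold higher in MDS-L without drug. Of 22 genes for uptake, activation and breakdown of cytidine analogues, 3 (13.6%) were at least 2-fold higher in MDS-L/CDA AZA and 1 (4.55%) in MDS-L AZA. Without drug, none of the genes of this list was at least 2-fold apart. UCK1, SLC29A1 and ADA were 2.28-fold, 2.15-fold and 2.04-fold higher in MDS-L/CDA AZA. UCK1 is a kinase that can phosphorylate AZA and SLC29A1 a nucleoside transporter, while ADA deaminates adenosine. UCK2, the other such kinase, and DCK, which activates deoxycytidine analogues, had log2 differences of 0.30 and -0.07. ABCC4, an efflux pump of nucleotide analogues, had 688 in MDS-L AZA and 144 in MDS-L/CDA AZA (4.8-fold), with 285 and 243 in vehicle. Over the scalings tried, between 0 and 2 of the 19 DNA methylation genes and between 0 and 3 of the 22 cytidine analogue genes were at least 2-fold higher in MDS-L/CDA AZA.

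Several lists had a median close to that of all genes, though some had a larger share of members at least 2-fold apart. The medians of interferon response, p53 target, heat shock, immediate early, ribosomal protein, lipoxygenase, chemokine and cytokine receptor, hypoxia and glycolysis, and germline genes were within 0.11 log2 units of that of all genes and lay on the other side of it under at least 1 of the alternatives run, for germline genes only with the dim side at its bound. Of 10 lipoxygenase and cyclooxygenase genes measured, 2 (20%) were at least 2-fold higher in MDS-L AZA, ALOX12 and LTC4S. PTGS2 and PLA2G4A (20%) were higher in MDS-L/CDA AZA. Of 28 interferon response genes measured, 4 (14.3%, against 5.51% of all genes) were at least 2-fold higher in MDS-L AZA. Among them was ISG20, an antiviral exonuclease, at 2609 and 1016. IFI35 was the gene in the other direction, at 143 in MDS-L AZA and 367 in MDS-L/CDA AZA. Among cholesterol synthesis genes, 3 of 20 (15%, against 5.56% of all genes) were higher in MDS-L/CDA AZA, namely CYP51A1, DHCR7 and FDPS, at 2.57-fold, 2.09-fold and 2.10-fold, and the count ranged from 0 to 3 over the scalings.

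Genes of a stretch of chromosome 7 were higher in MDS-L/CDA with and without drug. Positions follow the hg19 coordinates that the files give for each probe. In 20 Mb windows the median log2 difference relative to all genes on both arrays was highest at 80 to 100 Mb of chromosome 7, at 0.88 under AZA and 0.82 in vehicle, and next at 100 to 120 Mb, at 0.54 and 0.55. The bounds of the stretch, 85 to 120 Mb, were then drawn from 5 Mb windows after these values were seen, so its numbers are a description. Of 159 genes in it that were on in at least 1 AZA array, 63 (39.6%) were at least 2-fold higher in MDS-L/CDA AZA, against 5.56% of all genes, and 4 in MDS-L AZA. In vehicle it was 42 of 152 genes (27.6%), against 1.72%, and none in MDS-L. These 42 are 19.3% of all 218 genes higher in MDS-L/CDA without drug, and the 63 are 8.54% of the 738 under AZA. Of the genes on in both lines, 84.4% were above the median of all genes under AZA and 91.1% in vehicle. The rest of chromosome 7 had a relative median of 0.0019 under AZA and -0.01 in vehicle.

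The genes in this stretch had various functions. A total of 30 of them were at least 2-fold higher in MDS-L/CDA in both pairs of arrays. They included MCM7, TRRAP, a scaffold of histone acetyltransferases, ARPC1A and ARPC1B, subunits of the actin-nucleating ARP2/3 complex, and CDK14, a cyclin-dependent kinase, which were picked here after their values were seen. CDK6-AS1, MDFIC, CNPY4 and CYP51A1, described or plotted above, also lie in it. CDK6-AS1, an RNA antisense to CDK6, had 2004 in MDS-L/CDA AZA and 372 in MDS-L AZA (5.39-fold), with 1619 and 692 in vehicle. MDFIC, an inhibitor of MYOD-family factors, had 2399 and 352 (6.81-fold), with 2900 and 1581 in vehicle. The first 5 Mb of chromosome 5, which hold TERT, had a relative median of 0.75 under AZA and 0.54 in vehicle, over 20 genes.

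**Figure D5:**
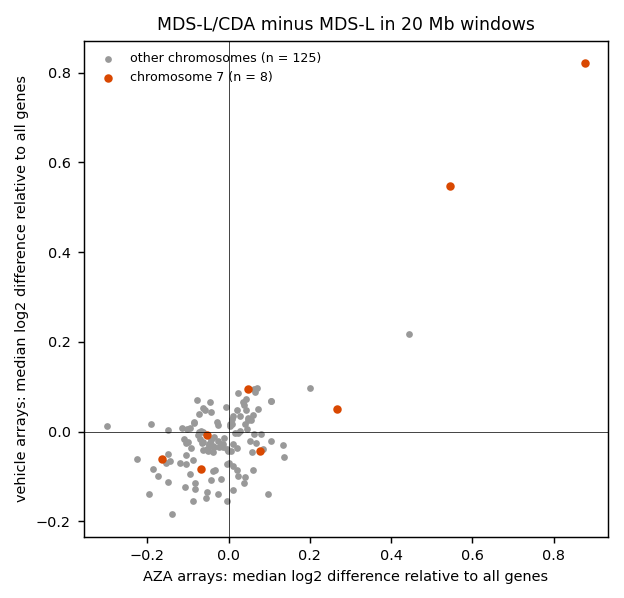
Median log2 difference (MDS-L/CDA minus MDS-L) relative to all genes in 133 windows of 20 Mb with at least 30 genes, under AZA (x axis) and in vehicle (y axis); orange marks the 8 windows of chromosome 7. A pair of chromosome 7 windows is the highest in both pairs of arrays, at 0.88 and 0.82 and at 0.54 and 0.55. Next is the window at 0 to 20 Mb of chromosome 5, at 0.44 under AZA and 0.22 in vehicle.

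The promoters of the genes on in 1 line only were poorer in CG dinucleotides than those of genes on in both. In the 300 bases around the RefSeq start (250 before and 50 after), genes on in both AZA arrays had a median of 26 CG dinucleotides and genes on in neither had 8. Genes on in MDS-L AZA only and at least 2-fold had 17 (180 of 256 had a promoter in the table), and genes on in MDS-L/CDA AZA only and at least 2-fold had 17.5 (64 of 85). The genes on in MDS-L AZA alone of the 4 arrays had 12 (103 of 164). The motif AGATAA, which GATA factors can bind and which was searched on both strands, was in 10.5% of all RefSeq promoters, 5.02% of those on in both and 12.3% of those on in neither. It was in 11.1% of those on in MDS-L AZA only and 9.38% of those on in MDS-L/CDA AZA only. The promoter of CLC shown above held this motif within the bases printed. A TATA box (TATAAA, both strands) was in 11.95% of all promoters, 6.05% of those on in both and 14.6% of those on in neither. It was in 12.8% of those on in MDS-L AZA only and 12.5% of those on in MDS-L/CDA AZA only. The promoter of CXCR4 held it within the bases printed. None of these shares was tested, and the sets differ in signal.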

How the data were processed

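Total RNA of both lines, with vehicle or AZA, was measured on 4 one-colour Agilent arrays of 1 slide. The authors deposited scanner output (Feature Extraction 10.7.1.1), with intensity per spot, background-subtracted and not normalized between arrays. A log2 value table of 51664 probes that the authors normalized was used as an alternative only. Control spots and 16 probes with outlier flags were left out. The log2 processed signal was averaged per probe, and the array's 75th percentile was subtracted. Files name genes by the array design. Of 43397 names, 23552 matched RefSeq symbols, by accession (21791), symbol (1501) or synonym (260). A gene was represented by its probe with the highest mean over the 4 arrays. A difference was counted from 2-fold, bounds included, and no fold was given where neither array was well above background. Named were the 12 largest differences in each direction among genes on in both AZA arrays and among genes on in 1, up to 4 members of each of 31 lists in each direction, CDA, DNMT1, the 6 genes of the study and cell markers. Exceptions are marked. The members and lists were chosen with earlier results of these data known. The calling script was run on simulated arrays as a check of the code, which gives no error rate for these arrays. The number of arrays limits the precision. With 1 array per condition, spot spread was the only error on the arrays. For the 6 genes it selected, the study repeated RT-qPCR experiments, which add no array. Promoters are those of RefSeq GRCh38.p14, and probe positions are hg19. Alternatives were 5 other scalings or background corrections, other uses of probes, filters and a Z score of 2 within 10 signal bins, and 1 scaling added after seeing the data. Python 3.11.15, numpy 2.4.6, pandas 2.3.3, matplotlib 3.10.9, R 4.3.3 and limma 3.58.1 (normexp, offset 50) were used.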

Additional observations from a re-analysis of the deposited data

How the results depend on the processing

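No difference of a named gene that was at least 2-fold changed direction under the alternatives run, but numbers did. The values 738 (higher in MDS-L/CDA AZA), 731 (higher in MDS-L AZA), 85 (on in MDS-L/CDA AZA only) and 256 (on in MDS-L AZA only) became, in this order, 138, 1787, 30 and 452 without scaling and 120, 377, 1 and 50 after normexp. With the percentile over probes on in all 4 arrays, chosen after seeing the data, the first 3 became 320, 1130 and 50. With a Z score of at least 2 they became 349, 412 and 25. Without a filter on dim probes the first 2 became 1687 and 1689. By flags alone the last 2 became 156 and 1161. Counting a gene by any of its probes gave 151 genes on in MDS-L/CDA AZA only, and requiring signal on both arrays left 475 genes higher in MDS-L AZA. Normexp with its offset compresses dim signals by construction, and the other causes were not tested. Of 152 named genes at least 2-fold apart, 144 stayed so in the same direction with median scaling, 134 after quantile normalization, 133 in the authors' value table, 123 with the percentile over probes on in all arrays, 115 without scaling and 72 after normexp. Over the scalings, the number of members at least 2-fold higher in MDS-L AZA ranged from 5 to 13 for erythroid genes, 3 to 7 for megakaryocyte genes, 2 to 5 for cancer-testis antigens, 6 to 12 for stress response genes and 3 to 11 for chemokine and cytokine genes. No paired analysis was possible because each condition had 1 array. Differences below the lowest signal well above background were not detectable here.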
